A study of Drosophila melanogaster
Schmidtea mediterranea with 2 samples.

Results

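The genes rb and cbp-3 are planarian homologs of human tumor suppressor genes, and at both the H3K4me3 peak in stem cells of Schmidtea mediterranea was among the widest 10% of all listed peaks. The H3K4me3 peaks were those listed after Mnase-ChIP-seq, and a peak was assigned to a gene when it overlapped the gene model drawn in the study by at least 1 bp. By this rule 2 of the 14553 listed peaks were found, 1 at each gene. At rb the peak was 2382 bp wide and took up 29.8% of the gene model, against one end. At cbp-3 the peak was 4732 bp wide and took up 94.5% of the model, from near one end to near the other.

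The series holds 1 H3K4me3 ChIP library and 1 input library, both from a single mixture of planarian and Drosophila cells. The planarian cells were 800 K X1 cells, sorted by FACS after Hoechst staining from untreated adults, and the cultured asexual strain is CIW4. X1 is the gate that empties when lethal irradiation removes the dividing stem cells. The Drosophila cells were S2 cells, a cultured line, 9.8 M of them by the design text of the series, so that X1 cells were 7.55% of the mixture, while the methods of the study give a slightly lower number of S2 cells. X1 is a mixed population of stem cells, and a listed peak does not tell in what share of the cells the locus was marked. All 14553 peaks are on planarian scaffolds, and the list holds neither gene expression nor gene names, so the X1 identity was not checked against marker genes. With 1 ChIP library no value below has a replicate error, no condition was compared and no p-value is given.

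Trimethylation of lysine 4 on histone H3 (H3K4me3) is deposited by Set1 and MLL family enzymes and is found around the start sites of active genes, usually over a few nucleosomes. At some genes it reaches far into the transcribed region instead, which gives a wide peak. Micrococcal nuclease digests the linker DNA between nucleosomes, so that the immunoprecipitated fragments are close to single nucleosomes. The retinoblastoma protein, Rb, is known from mammals as a pocket protein that binds E2F transcription factors and holds back entry into S phase. CBP and p300 are known from mammals as large histone acetyltransferases that act as coactivators for many transcription factors. Whether the planarian proteins have the same roles was not measured here.

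The rb gene model spans 7992 bp, from position 2247968 to 2255959 of scaffold 45 in the Rink lab v4 assembly, whose scaffold names begin with dd_Smes_g4. Its only peak runs from position 2253440 to 2255821 and lies wholly inside the model. The higher limit of the peak is 138 bp from the end of the model at higher positions, whereas the lower limit is 5472 bp from the other end. The stretch without a listed peak is therefore 68.5% of the model on the lower side and 1.73% on the higher side, and the centre of the peak sits at 83.4% of the way from the lower end. H3K4me3 at rb was thus listed at one end of the gene.

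The cbp-3 gene model spans 5006 bp, from position 387751 to 392756 of scaffold 228. Its only peak runs from position 387986 to 392717 and also lies wholly inside the model. The higher limit is 39 bp from the end at higher positions and the lower limit is 235 bp from the end at lower positions. The peak centre is at 52.0% of the model, and only 274 bp of the gene lie outside the peak. Unlike at rb, the listed peak comes near both ends of the gene.

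**Figure D1:**
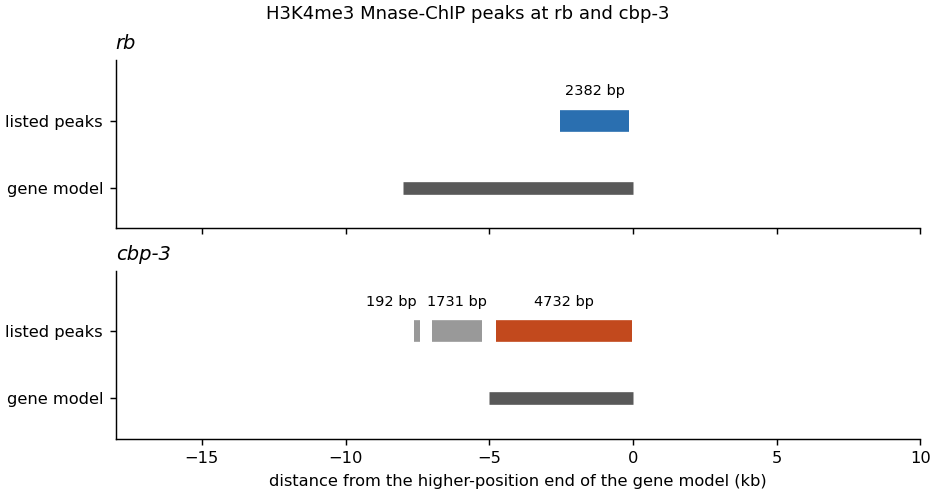
Gene models (dark bars) and listed peaks (coloured where they overlap the model, grey elsewhere) at rb and cbp-3, by distance in kb from the end of each model at higher positions, with peak widths in bp. The 2382 bp peak of rb is alone at one end of its model. The 4732 bp peak of cbp-3 covers 94.5% of its model and has peaks of 1731 bp and 192 bp on the lower side.

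At both genes the peak comes closest to the end at higher positions, within 138 bp at rb and 39 bp at cbp-3. The strand of the models was not used here, so neither end was named as the start of transcription, and the peak was not used to decide it. Exon limits were not used either. The models were read from a drawing, and moving both of their ends by 100 bp gave covered shares between 29.1% and 30.6% at rb and between 90.9% and 97.2% at cbp-3. An edge distance such as 39 bp is smaller than such a shift and does not show that the peak stops short of the gene end.

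The peak at cbp-3 was 1.99 times as wide as that at rb, although the cbp-3 model is 0.626 times as long. The covered shares differed by 64.7 percentage points, far more than the few points by which a shift of 100 bp in the model ends moved either value. Gene length bounds the covered share. The widest of all listed peaks, at 5196 bp, would cover only 65.0% of the rb model, and 0 of 14553 peaks are as long as that model. The cbp-3 model is itself longer than all but 1 of the listed peaks. The longer unmarked stretch at rb, 5472 bp against 235 bp at cbp-3, holds no listed peak at all. The narrowest entry of the list is 175 bp and the read depth is unknown, so weaker or shorter H3K4me3 in this stretch was not detectable from the list.

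Both widths were set against all listed peaks. The median width was 940 bp (95% interval from order statistics 931 to 951 bp), and the widest 10% began above 1602 bp. The rb peak was 2.53 times as wide as the median and ranked 268 from the widest, at the 98.2 percentile (95% Wilson interval for counting error 97.9 to 98.4). The cbp-3 peak was 5.03 times as wide as the median and ranked 3, at the 99.98 percentile (99.94 to 99.99). Both of the 2 genes had a peak wider than 2 kb, a width that 3.94% of all listed peaks exceeded and that was chosen with their values known. The study drew these genes as tumor suppressor homologs among its Set1 targets, from another ChIP experiment, so they were not a neutral sample of planarian genes.

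**Figure D2:**
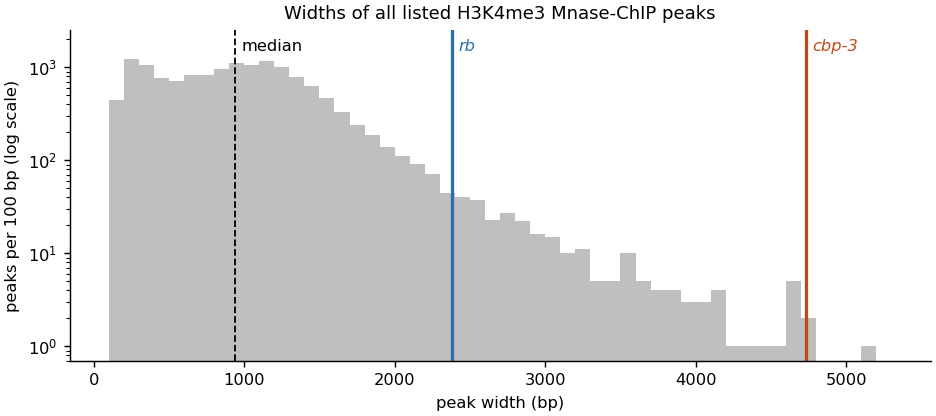
Number of listed peaks per 100 bp of width (log scale), with the median of 940 bp (dashed) and the peaks at rb and cbp-3 (coloured lines). The rb peak, at 2382 bp, stands where the distribution thins out, and the cbp-3 peak, at 4732 bp, stands near its upper limit of 5196 bp.

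No other listed peak had exactly the width of the rb peak, but several came within a few bp of it. Peaks of 2385 bp on scaffold 55 (positions 2662376 to 2664760) and on scaffold 6 (positions 373043 to 375427) were the next wider, by 3 bp. The next narrower were 2378 bp on scaffold 286 (positions 74466 to 76843) and 2375 bp on scaffold 7 (positions 5725057 to 5727431). These differences of 3 to 7 bp are far below the length of a nucleosome, so the exact rank of rb carries little weight. Around cbp-3 the widths lay further apart. The next wider were 4789 bp on scaffold 76 (positions 2511788 to 2516576) and 5196 bp on scaffold 149 (positions 1396302 to 1401497), which exceeded cbp-3 by 57 and 464 bp. The next narrower were 4691 bp on scaffold 35 (positions 2025456 to 2030146) and 4689 bp on scaffold 1 (positions 9889375 to 9894063), 41 and 43 bp below it. Apart from the 464 bp, these differences are also below the length of a nucleosome, so the exact rank of cbp-3 carries little weight either.

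A percentile of width does not take the length of a gene into account, and the lengths of other genes were not used here. To place the covered shares, a window as long as each gene model was set on every listed peak. Its distance past the higher peak limit was that at the gene itself, and the bases inside any listed peak were counted. In windows of 7992 bp the median share was 13.3%, and 683 of 14553 windows (4.69%), rb included, reached the 29.8% of rb. In windows of 5006 bp the median was 20.7%, and 8 windows (0.055%), cbp-3 included, reached the 94.5% of cbp-3. With the windows turned the other way round the numbers were 685 and 8. Windows on neighbouring peaks overlap, so these are counts and not independent observations. All windows of a set have the same length and hold the peak they were set on. Their shares thus depend on the width of that peak and on any further listed peak inside the window. The counts are not independent of width, but they exceed the width ranks, 683 against 268 for rb and 8 against 3 for cbp-3. Measured over its full length, rb was thus marked more than most windows, and cbp-3 was among the few that were marked almost throughout.

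**Figure D3:**
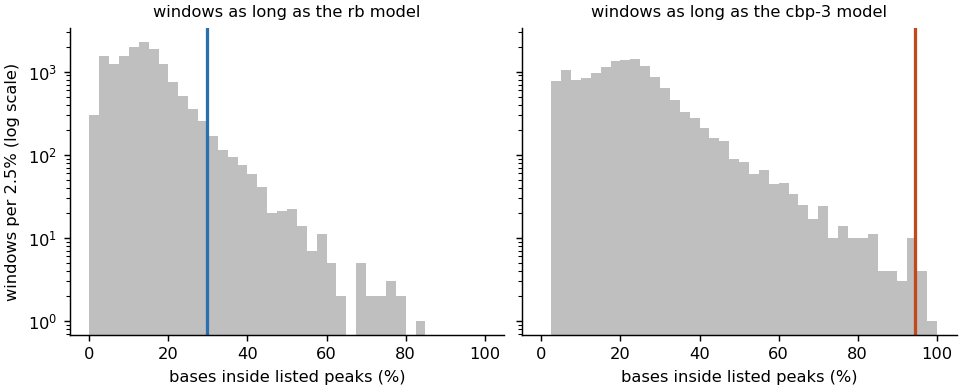
Share of bases inside listed peaks (%) in windows as long as the rb model (left, 7992 bp) and the cbp-3 model (right, 5006 bp), set on each of the 14553 peaks, with the number of windows per 2.5% on a log scale. The line for rb at 29.8% cuts the upper slope of its distribution, whereas the line for cbp-3 at 94.5% stands close to the highest share, 99.2%. That limit is set by how the windows were placed. Each runs 39 bp past its peak, and no 2 listed peaks are closer than 176 bp, so these 39 bp are never listed.

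The surroundings of the 2 genes also differed. Within 10 kb of the rb model there were 0 further peaks. On the lower side the next peak was 509 bp wide (positions 2156525 to 2157033) and ended 96.4 kb before the rb peak, a distance longer than 85.9% of the 14104 distances between neighbouring peaks. Only 205 bp beyond it lay another narrow peak of 547 bp (positions 2155773 to 2156319). On the higher side a peak of 1044 bp (positions 2277648 to 2278691) began 21.8 kb after the rb peak, at the 35.8 percentile of distances. A wider one of 1953 bp (positions 2341221 to 2343173) began 85.4 kb after it. The rb peak was thus a wide peak with no other peak close by.

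An empty flank of this kind was common. Of all listed peaks, 61.8% had no other peak within 10 kb of their own limits, and of the 268 peaks as wide as rb or wider, 62.7% had none (95% Wilson interval 56.8% to 68.3%). Likewise 42.6% of all peaks had a nearest neighbour further away than the 21.8 kb of rb. The empty flanks of rb were therefore the usual case in the list, and among peaks of its width or wider as well.

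Within 10 kb of the cbp-3 model there were 2 further peaks, both on the lower side. The nearer was 1731 bp wide (positions 385770 to 387500, 92.8 percentile of widths) and ended 485 bp before the cbp-3 peak and 250 bp before the gene model. In the drawing of the locus an unnamed gene model lies on this side of cbp-3, but its limits were not used here and the peak was not assigned to it. The second was 192 bp wide (positions 385151 to 385342, 2.2 percentile), one of the narrowest in the list, and was separated from the first by 427 bp. On the higher side the next peak, 1719 bp wide (positions 452180 to 453898), began 59.5 kb away, at the 69.8 percentile of distances between neighbouring peaks. The one after it, 1124 bp wide (positions 548483 to 549606), began 155.8 kb away. Beyond the narrow peak on the lower side, 127636 bp followed without a listed peak. The wide peak of cbp-3 thus stood in a group of 3 peaks, and the nearest peak outside the group was 59.5 kb away.

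Such close neighbours were less common than empty flanks. Of all listed peaks, 17.5% (95% Wilson interval 16.9% to 18.1%) had another peak within 500 bp, against 21.6% (17.1% to 27.0%) of those as wide as rb or wider. The second group is contained in the first and close peaks count for each other, so these intervals do not compare the groups. At least 2 other peaks within 10 kb, as at cbp-3, were found for 9.76% of all peaks (9.29% to 10.3%) and for 11.2% (7.95% to 15.5%) of those as wide as rb or wider. Among the 20 widest peaks, the group that holds cbp-3 and that was formed after the widths had been seen, both shares were higher. Another peak lay within 500 bp of 8 of the 20 (95% Wilson interval 21.9% to 61.3%), and 5 of the 20 (11.2% to 46.9%) had at least 2 other peaks within 10 kb. No other peak within 10 kb was found for 10 of the 20 (29.9% to 70.1%), beside 61.8% of all peaks. The 20 are part of all peaks and close peaks count for each other, so these intervals are not a test. Over 2 kb the first 2 shares were 19.9% and 10.3%. Among the 1053 peaks as wide as the cbp-3 neighbour or wider they were 17.1% and 9.88%. The 1923 bp of listed peaks in the 10 kb flanks of the cbp-3 peak were at the 95.4 percentile of all peaks, while the flanks of the rb peak held 0 bp.

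**Figure D4:**
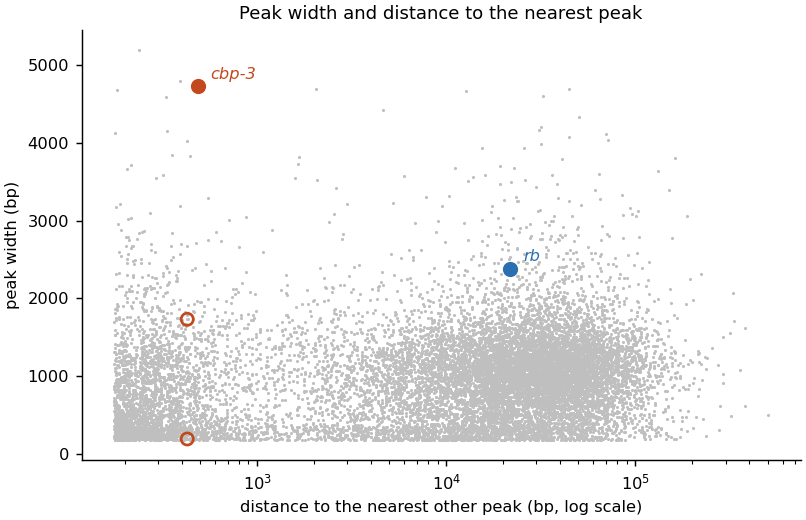
Width of every listed peak (bp) against the distance to its nearest other peak (bp, log scale), with rb and cbp-3 as filled points and the 2 neighbours of cbp-3 as open circles. The cbp-3 peak (4732 bp) is 485 bp from its neighbour, and the rb peak (2382 bp) is 21826 bp from its own, within the dense part of the distribution of distances.

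The nearer neighbour of cbp-3 was itself wide. Adjacent peaks at most 500 bp apart formed 1335 pairs, and in 11 of these (0.824%, 95% Wilson interval 0.461% to 1.47%) both peaks were among the widest 10%. The cbp-3 peak and its 1731 bp neighbour were one of these pairs. The same share was not counted for neighbouring peaks at larger distances, so 0.824% is not shown to be high or low. Together they summed to 6463 bp, the largest sum among the 1335 pairs. The cbp-3 peak alone gave 4732 bp of it. The wider peaks of 5196 and 4789 bp also had a neighbour within 500 bp, at 237 and 390 bp, but smaller sums. The first place of the cbp-3 pair thus rests on the width of its neighbour as well as on its own. The next largest sum was 6094 bp on scaffold 76, where the peak of 4789 bp lies beside one of 1305 bp. When peaks up to 500 bp apart were joined, the 3 peaks at cbp-3 became a region of 7567 bp, from position 385151 to 392717, of which 912 bp (12.1%) were not in any listed peak. It was the widest of 13218 such regions, ahead of one of 7435 bp, and 0.757% of the regions joined 3 or more peaks. When peaks up to 1000 bp apart were joined it kept 7567 bp and ranked 3, since regions elsewhere grew to as much as 9177 bp. The joined region extends beyond the gene, so it describes the locus and not the marking of cbp-3. At rb no joining distance up to 1000 bp changed the peak.

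On their own scaffolds the peaks took different places. Scaffold 45 held 81 peaks, between 183 and 2699 bp wide with a median of 968 bp, and rb was the third widest. The wider ones, of 2699 and 2397 bp, lay 679.8 and 1531.9 kb from rb, and a peak of 2342 bp lay 1019.8 kb away on the other side. The rb peak therefore had peers of similar width on the same scaffold, but none of them nearby. Scaffold 228 held only 13 peaks, between 192 and 4732 bp wide with a median of 1189 bp, and cbp-3 was the widest. It was 1.54 times as wide as the second, of 3066 bp, which lay 313.1 kb away. From the first peak to the last, scaffold 45 had 1 peak per 55.6 kb and scaffold 228 had 1 per 48.8 kb, against a median of 49.9 kb over the 260 scaffolds with at least 10 peaks. Both values lay between the lowest 10% (up to 33.6 kb) and the highest 10% (from 67.0 kb) of these scaffolds, so that neither gene was on a scaffold especially dense or sparse in peaks.

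**Figure D5:**
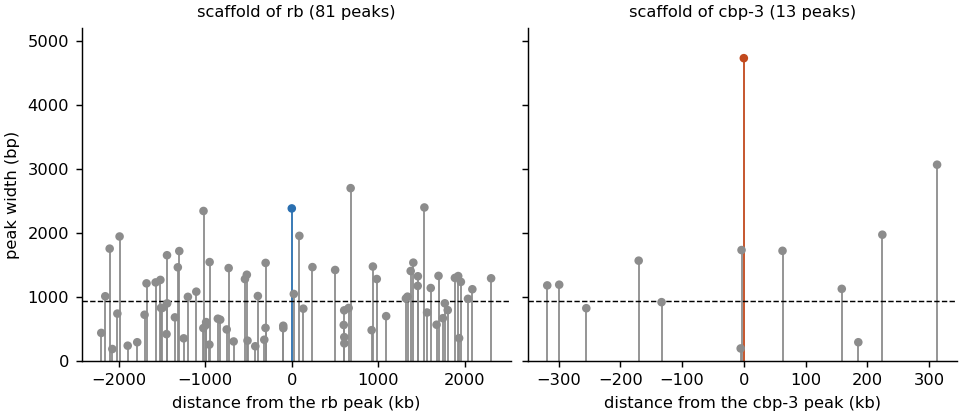
Width (bp) of every listed peak on the scaffold of rb (left, 81 peaks) and of cbp-3 (right, 13 peaks), by distance in kb from the peak at the gene (coloured), with the median of all listed peaks, 940 bp, as a dashed line. The rb peak is matched by a few peaks of about its width, up to 2699 bp, whereas the cbp-3 peak stands above the next widest, of 3066 bp.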

How the data were processed

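Per the study's methods, the authors used bowtie2 to align the Mnase-ChIP reads to the planarian genome (Rink lab v4) and MACS2 for peak calling. Versions, options and the use of the input library as control are not given in the sources used here. The deposited list gives a scaffold, a start and an end in bp for each peak (another unit than counts or signal), with no header, score or summit. It holds 14553 lines and 0 duplicates. No read numbers were used, so depth is unknown, and intervals cover counting error only.

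Starts were read as counted from 0 and are printed as counted from 1. Width is end minus start, and a distance is the number of bases between 2 peaks. A percentile is the share of narrower peaks, with ties at 50%. Python 3.11.15, numpy 2.4.6, pandas 2.3.3, scipy 1.17.1 and matplotlib 3.10.9 were used, and the interval functions were tested on simulated data. The genes, their drawn positions and the measures were chosen with earlier results of these data known. Named peaks are those on the models, those within 10 kb and the next ones on each side, those next in width and the wider or nearly as wide ones of each scaffold. The choice of peaks beyond 10 kb and by scaffold was made after their values had been seen. Alternatives joined peaks up to 200, 500 or 1000 bp apart, changed the overlap, model ends or window, or ranked within fewer peaks. No sequence of the planarian genome was used. The gene table at hand covered Drosophila melanogaster and was not used.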

Additional observations from a re-analysis of the deposited data

How the results depend on the processing

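Of 36 alternative values, 23 kept the value or stayed within its counting interval and 13 moved. The width at cbp-3 rose from 4732 to 7567 bp when peaks up to 500 bp apart were joined, and likewise at 1000 bp. The number of further peaks within 10 kb then fell from 2 to 0, because both became part of the region. Its percentile was 99.996 after joining at 500 bp and 96.2 among the 13 peaks of its own scaffold, where the widest peak cannot rank higher. The rb percentile of 98.2 became 96.2 and 95.1 after joining at 500 and 1000 bp, with fewer and wider regions to rank against, and 96.9 among the 81 peaks of its scaffold. The covered share of rb, 29.8%, was 29.1% and 30.6% with the model ends moved outward and inward by 100 bp. That of cbp-3, 94.5%, was 90.9% and 97.2%, and it was 93.3% with the whole model moved by 100 bp to lower positions. The widest peak at each gene was the same when the model was extended by 500 bp or when 50% of the peak had to lie inside it, but the extended cbp-3 model overlapped 2 peaks instead of 1, while that of rb still overlapped 1. No paired analysis was possible because 1 ChIP library was analysed, and leaving out replicates was not possible either. Since depth is unknown, a stretch without a listed peak may still carry H3K4me3.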
